A study of Mus musculus with 4 samples.

Results

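Lyve1, Mrc1, Cd163, Folr2, Stab1, Siglec1, Msr1 and Marco are genes of scavenging and uptake receptors on tissue-resident macrophages. They were taken by symbol from a list drawn up with earlier results of these data known, and all 8 were found among the 32285 genes counted in the study. The study grew OV2944-HM1, a mouse ovarian cancer line, as tumours under the skin of the right flank of B6C3F1 mice that were 6 to 8 weeks old, from 1000000 cells per mouse. The control group received vehicle and the IL_27 group 100 ng of recombinant mouse interleukin 27 per mouse, both into the tumour from the day of implantation and then every other day. Leukocytes were taken on day 14 with beads against CD45, which marks nearly all blood-derived cells but red cells, and single-cell RNA was read from the 5′ end of transcripts. The genotype is the same in both groups, and no allele or transgene is named for either. Both groups have 2 labelled entries, but a single count matrix per group was used, in which cells cannot be traced to an entry, and n is therefore 1 in each. Differences below are thus differences between 2 matrices, without replicates and without a test.

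Scavenger receptors bind a wide range of ligands, such as modified lipoproteins, haemoglobin complexes, glycans and remnants of dying cells, and carry them into the macrophage for breakdown. Several of these receptors mark macrophages that settle in tissues, often beside vessels, and they are commonly used to tell such cells from freshly recruited monocytes in tumours. LYVE1, a receptor for hyaluronan, is also a classic marker of lymphatic endothelium, and stabilin 1 is found on sinusoidal endothelium as well.

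The control matrix held 10784 barcodes and the IL_27 matrix 10183, of which 10617 and 9990 cells were kept, with medians of 2408 and 1870 UMIs (unique molecular identifiers, 1 per captured transcript). The labels call the cells lymphocytes, but T or NK cells made up 6.85% and 8.03% of kept cells, while neutrophils made up 39.2% and 33.2%. Macrophage-class cells, set by UMIs of C1qa, C1qb, C1qc, Ms4a7 and Trem2, numbered 1548 in control (14.6%) and 1244 in IL_27 (12.5%). Monocyte-class cells numbered 472 and 440, and dendritic-class cells (conventional type 1, conventional type 2 and mature) 508 and 589. A further class of 933 and 1369 cells carried Dcstamp, Mmp12, Mmp19, Ccl24 and Ocstamp with little C1q, and is called C1q-low Dcstamp cells here because these markers do not name a cell type. Macrophage-class cells carried the same Dcstamp set, at medians of 26.7 in control and 29.8 in IL_27 per 10000 UMIs, above its threshold of 20. What separates the 2 classes is therefore the macrophage gate. None of the 8 receptor genes was used to set a class. In the macrophage class 22.2% and 23.2% of cells lay within 2 times the gate threshold. The matrices shared 133 barcodes.

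On the mouse genome (GRCm38, GENCODE M21) the genes are spread over 6 chromosomes, all are protein coding, and no neighbouring pair of them overlaps. Mrc1 lies at chr2:14229392-14332057 on the plus strand and holds the microRNA gene Mir511 on the same strand. Cd163 lies at chr6:124304656-124330527 on the plus strand and overlaps no other gene. Stab1 lies at chr14:31139013-31168641 on the minus strand, where it overlaps Nt5dc2 on the opposite strand. Folr2 lies at chr7:101839988-101857194 on the minus strand and overlaps an antisense gene and a pseudogene on the opposite strand. Lyve1 (chr7:110850607-110863239, minus strand), Siglec1 (chr2:131069220-131086765, minus strand), Msr1 (chr8:39581685-39642673, minus strand) and Marco (chr1:120474538-120505024, minus strand) overlap no other gene. RefSeq promoter windows (GRCm38.p6) matched 5 of the 8 genes. Those of Cd163, Stab1 and Mrc1 are shown because these genes had higher levels in the IL_27 macrophages, and the window at the outer start of Folr2 is shown as that of a macrophage gene with a smaller difference. Each is the 250 bases before the annotated start, 5′ to 3′ on the gene's strand, with capitals at matches to the MAF half-site TGCTGA or the PU.1 core GAGGAA on either strand.
Cd163 (chr6:124304401-124304650, plus strand): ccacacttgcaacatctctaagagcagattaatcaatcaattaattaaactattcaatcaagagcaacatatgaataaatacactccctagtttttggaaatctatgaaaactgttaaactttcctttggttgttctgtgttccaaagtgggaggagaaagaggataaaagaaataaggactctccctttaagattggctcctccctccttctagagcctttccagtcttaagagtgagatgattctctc
Stab1 (chr14:31168642-31168891, minus strand): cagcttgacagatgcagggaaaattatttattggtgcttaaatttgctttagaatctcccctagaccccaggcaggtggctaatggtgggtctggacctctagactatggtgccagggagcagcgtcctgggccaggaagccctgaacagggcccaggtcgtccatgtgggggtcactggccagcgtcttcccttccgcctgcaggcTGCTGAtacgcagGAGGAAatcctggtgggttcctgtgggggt
Mrc1 (chr2:14229164-14229413, plus strand): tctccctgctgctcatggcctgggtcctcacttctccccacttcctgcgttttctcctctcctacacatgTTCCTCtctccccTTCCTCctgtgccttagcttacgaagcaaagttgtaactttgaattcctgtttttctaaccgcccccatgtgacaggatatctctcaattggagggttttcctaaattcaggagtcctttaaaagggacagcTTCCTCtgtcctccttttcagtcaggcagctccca
Folr2 (chr7:101857191-101857440, minus strand): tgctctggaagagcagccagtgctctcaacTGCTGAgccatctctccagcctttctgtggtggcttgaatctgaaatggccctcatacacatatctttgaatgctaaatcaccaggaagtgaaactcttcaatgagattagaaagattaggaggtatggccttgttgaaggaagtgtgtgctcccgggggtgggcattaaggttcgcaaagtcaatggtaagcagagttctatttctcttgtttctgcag
The 2 motifs did not overlap in any of these windows. The half-site of MAF, a transcription factor of macrophages, was found once in Stab1, 43 bases before the start, and once in this Folr2 window, 220 bases before it. Of all 32851 windows of 250 bases, 16.1% held it. The core of PU.1, the lineage factor of myeloid cells, was found in Mrc1 at 3 places, 180, 167 and 35 bases before the start, and once in Stab1, 30 bases before it, against 23.3% of all windows. Cd163 held neither in this window. A further motif that was searched for, the gamma-activated site TTCNNNGAA, matched 0 of the 6 windows of receptor genes, against 7.02% of all windows. A match describes letters only.

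All 8 genes had their highest level among 6 mononuclear phagocyte classes (macrophage, C1q-low Dcstamp, monocyte and the 3 dendritic classes) in macrophage-class cells, in both matrices. Levels are UMIs of a gene per 1000000 UMIs of the class (CPM), with 95% Poisson intervals that cover counting error only. For Marco the order was not resolved, since macrophages and mature dendritic cells overlapped in their intervals in both matrices. In control these were 2.99 CPM (1.77 to 4.73) and 2.37 CPM (0.646 to 6.07). Marco apart, the label of macrophage receptors held in this respect, but the genes differed in how far they reached beyond that class. Folr2, the gene of folate receptor beta, stood at 124 CPM (115 to 133) in control and 169 CPM (155 to 183) in IL_27 macrophages and at 3.10 and 3.75 CPM in monocytes. Macrophages held 85.3% of all Folr2 UMIs in control and 82.5% in IL_27. Cd163, the gene of the receptor for haemoglobin bound to haptoglobin, stood at 2.35 CPM or less in every other control class of these 6. Macrophages held 77.7% and 83.2% of its UMIs.

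Msr1 had a much wider reach than Folr2 and Cd163. It encodes scavenger receptor A, which binds modified lipoproteins, and its control level was 384 CPM (368 to 400) in macrophages, 292 CPM (277 to 308) in C1q-low Dcstamp cells and 297 CPM (277 to 317) in monocytes. Those last values overlap in their intervals, so the order of these neighbours was not resolved. Macrophages held 43.2% of Msr1 UMIs in control and 33.0% in IL_27. Mrc1, the gene of the mannose receptor CD206, fell off more steeply in the control matrix, from 712 CPM (691 to 733) in macrophages to 322 CPM (306 to 339) in C1q-low Dcstamp cells, 108 CPM (96.6 to 121) in monocytes and 72.6 CPM (59.2 to 88.0) in conventional type 2 dendritic cells. The order of these classes was the same in IL_27, at 1038, 412, 179 and 83.5 CPM. Stab1 stood at 80.1 CPM (73.1 to 87.6) in control macrophages, 20.7 CPM in monocytes, 12.2 CPM in C1q-low Dcstamp cells and 5.64 CPM in conventional type 2 dendritic cells. Siglec1, the gene of sialoadhesin, which binds sialic acids, followed the same order at 23.6, 15.2 and 6.42 CPM for control macrophages, monocytes and C1q-low Dcstamp cells. Its monocyte interval (11.02 to 20.4) touched that of macrophages (19.9 to 27.8).

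Conventional type 1 dendritic cells had at most 2.97 CPM of any receptor gene in control and 7.54 CPM in IL_27. Stab1 had 0 UMIs in these cells in both matrices, which allows at most 1.27 and 1.19 CPM by a limit of 3 counts. Marco, a class A receptor for bacteria and particles, was close to the detection limit. It had 18 UMIs in 8 control macrophages and 11 UMIs in 4 IL_27 macrophages, and 3 cells held 72.2% and 90.9% of them. No direction is read for Marco. Endothelial-class cells, which the sort should remove, numbered 12 and 10. In control they held 42 Lyve1 UMIs, 29.4% of all Lyve1 UMIs in that matrix, of which 41 were in 1 cell. The same class held 11 Stab1 UMIs in control, all in 1 cell, and 11 in 2 IL_27 cells.

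**Figure D1:**
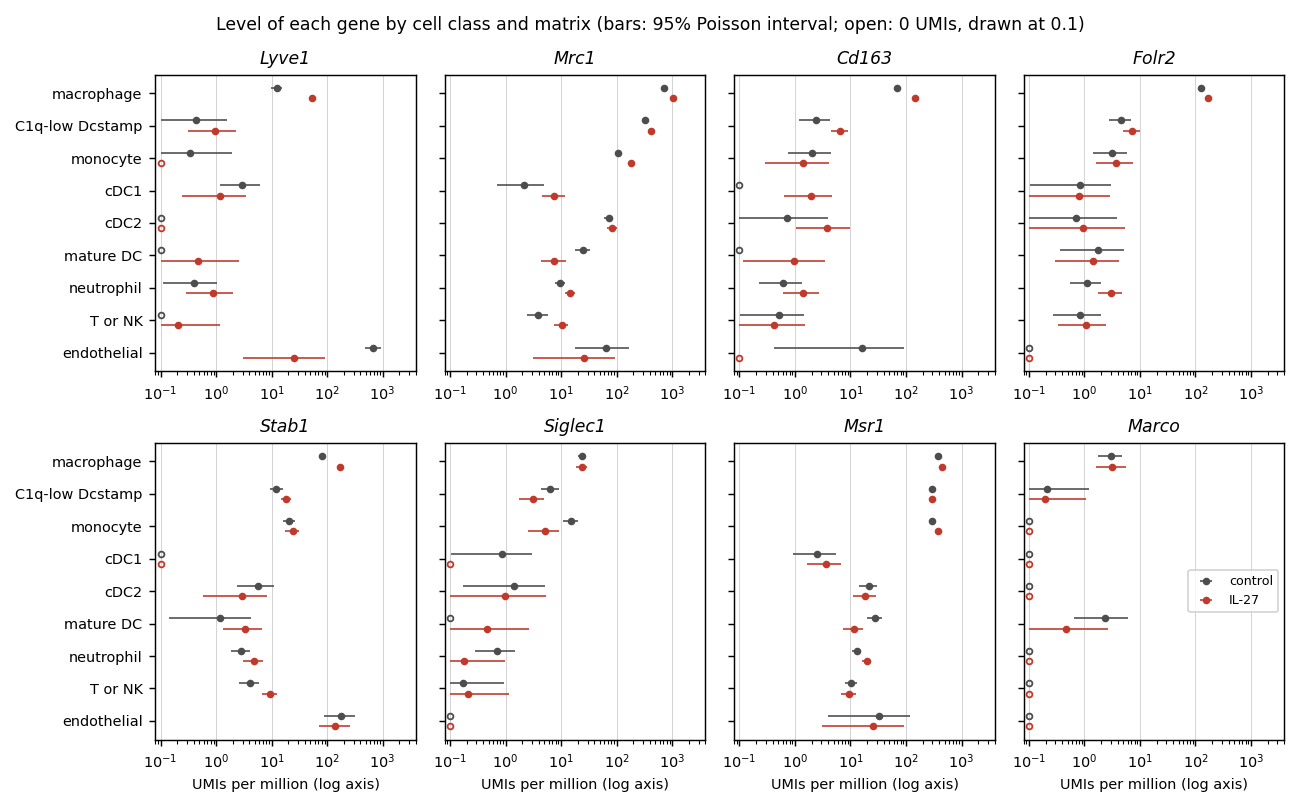
Level of each receptor gene (CPM, log axis) in 9 cell classes, with control in grey and IL_27 in red. Points are summed counts of 1 matrix and bars are 95% Poisson intervals. Folr2 and Cd163 drop sharply outside macrophages, Msr1 stays near 292 CPM or above in C1q-low Dcstamp cells and monocytes, and Lyve1 is higher in the 12 control endothelial cells than in macrophages.

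The main comparison asked how the receptor genes of macrophages differed between IL_27 and control tumours. Lyve1, Cd163 and Stab1 were at least 1.5 times higher in the IL_27 macrophages, and no receptor gene was at least 1.5 times lower. These 3 of 8 stand beside 6.54% of all 10247 genes with at least 20 UMIs that were higher by this rule and 7.13% that were lower. The median log2 ratio was 0.50 over the 8 genes and 0.02 over all genes measured. Mrc1 and Folr2 were higher by less than 1.5 times, Msr1 by less again, and Siglec1 and Marco stood close to a ratio of 1.

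Lyve1 had 74 UMIs in 49 of 1548 control macrophages and 186 UMIs in 80 of 1244 IL_27 macrophages. The level was 12.3 CPM (9.66 to 15.4) in control and 53.8 CPM (46.3 to 62.1) in IL_27, a ratio of 4.37 with a 95% interval of 3.32 to 5.81. The intervals of the levels lay far apart, and Lyve1 had the highest ratio of the set. The single cell with most UMIs had 5 in control and 20 in IL_27, and the 3 leading cells held 16.2% and 23.7% of the counts. Without those 3 cells in each matrix the levels were 10.3 and 41.1 CPM.

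Cd163 stood at 67.6 CPM (61.2 to 74.5) in control and 146 CPM (133 to 159) in IL_27 macrophages, from 407 and 504 UMIs. Its ratio was 2.15 (1.89 to 2.46), and the level intervals did not overlap. Stab1 encodes stabilin 1, an endocytic receptor that takes up extracellular proteins and remnants of dying cells. It stood at 80.1 CPM in control and 172 CPM (158 to 186) in IL_27, a ratio of 2.14 (1.90 to 2.42), from 482 and 594 UMIs. These ratios for Cd163 and Stab1 were nearly equal.

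Mrc1 stood at 712 and 1038 CPM, from 4283 and 3589 UMIs. Its ratio of 1.46 (1.39 to 1.52) rests on more counts than that of any other receptor gene here, so its interval is the narrowest. Folr2, at 124 and 169 CPM, had a ratio of 1.36 (1.22 to 1.52), but when classes were taken from clusters in place of marker gates the ratio was 1.02. Msr1, at 384 and 437 CPM (416 to 460 in IL_27), had a ratio of 1.14 (1.07 to 1.22). Siglec1 stood at 23.6 CPM in control and 23.7 CPM (18.9 to 29.4) in IL_27, from 142 and 82 UMIs, a ratio of 1.00 (0.756 to 1.33). A difference in Siglec1 within that interval was not detectable at this depth.

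**Figure D2:**
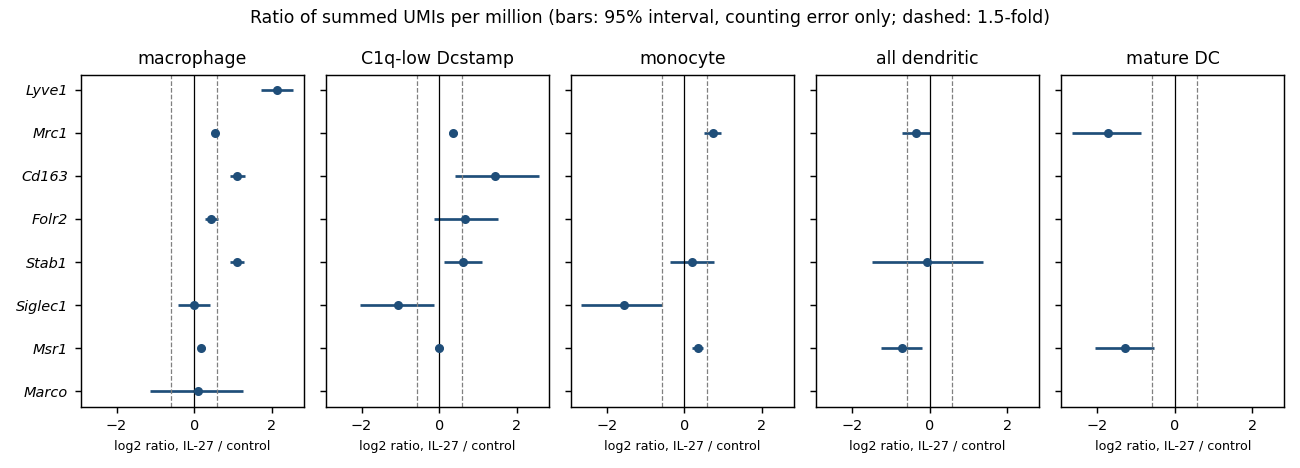
Log2 ratio of each receptor gene's level, IL_27 over control, in 5 classes. Points are ratios of summed counts, bars are 95% intervals for counting error only, dashed lines mark 1.5-fold, and genes with fewer than 20 UMIs over both matrices are not drawn. Lyve1, Cd163 and Stab1 lie right of 1.5-fold in macrophages, Siglec1 lies left of it in monocytes and C1q-low Dcstamp cells, and Mrc1 and Msr1 lie left of it in mature dendritic cells.

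The share of macrophages in which a gene was seen was compared after every cell was thinned to 1000 UMIs, since control macrophages were deeper (medians 2322 and 1831 UMIs). Thinning kept 1276 control and 967 IL_27 macrophages. Lyve1 had a UMI in 1.41% (0.838 to 2.22) of control and 4.45% (3.24 to 5.94) of IL_27 cells, against 3.17% and 6.43% before thinning. Mrc1 was seen in 40.8% (38.04 to 43.5) and 51.3% (48.1 to 54.5), against 60.9% and 68.0% before thinning. Stab1 was seen in 10.4% (8.80 to 12.2) and 16.4% (14.2 to 18.9), against 19.1% and 25.0% before thinning. For these 3 genes the intervals at equal depth did not overlap.

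The other receptor genes had overlapping intervals at equal depth. Cd163 was found in 8.07% (6.64 to 9.70) of control and 11.4% (9.44 to 13.5) of IL_27 macrophages. Folr2 was seen in 12.5% and 15.1%, and Msr1 in 30.8% and 32.6%. Before thinning these shares were 13.05% and 15.4% for Cd163, 23.8% and 23.8% for Folr2, and 56.8% and 52.3% for Msr1. Siglec1 was seen in 7.75% and 4.50% of cells before thinning and in 2.51% and 2.17% after it, so no order is read from its shares. Neutrophils, which should lack these receptors and had medians of 2152 and 1586 UMIs, were used as a guide to free RNA. Doublets, which were kept, can add to their counts, and the 2 sources were not told apart. At 1000 UMIs neutrophils showed Mrc1 in 0.924% and 1.51%, Msr1 in 1.20% and 1.73%, Stab1 in 0.435% and 0.332% and Lyve1 in 0.0815% and 0.111% of cells. Unthinned neutrophils had 9.74 and 14.7 CPM of Mrc1, 1.12 and 2.98 CPM of Folr2, and 0.406 and 0.876 CPM of Lyve1. The ratio in neutrophils was 1.51 (1.11 to 2.05) for Mrc1, 1.53 (1.17 to 1.98) for Msr1 and 2.67 (1.18 to 6.31) for Folr2. Lyve1 had 4 and 5 UMIs there, so no direction is read for it.

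**Figure D3:**
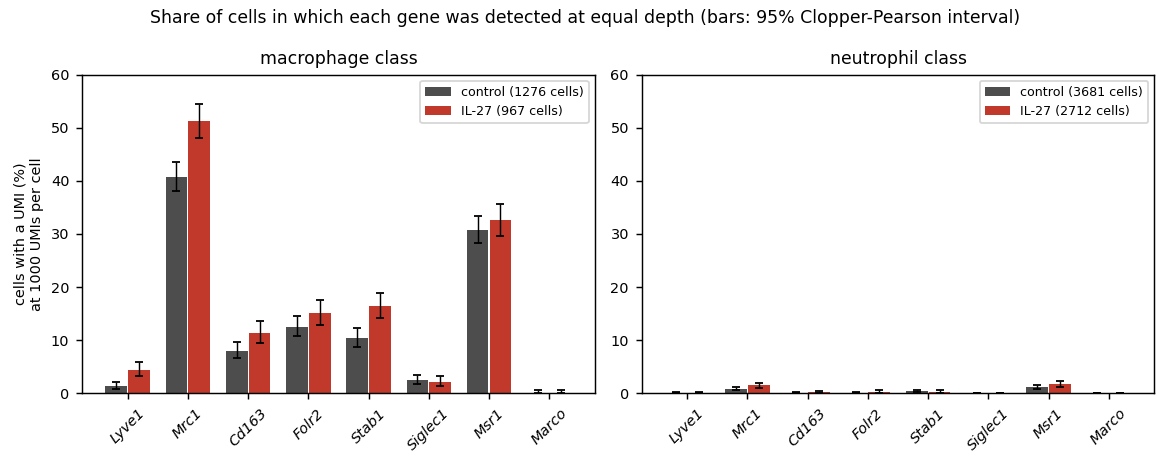
Percent of cells with at least 1 UMI of each receptor gene when every cell was thinned to 1000 UMIs, in macrophages (left) and neutrophils (right), with 95% Clopper-Pearson intervals. Macrophages of the IL_27 matrix lie above control for Lyve1, Mrc1 and Stab1 without overlap of the intervals. Neutrophils show no receptor gene in more than 1.73% of cells.

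RNA from endothelial cells was checked because Lyve1 and Stab1 are also endothelial genes. In macrophages Prox1 and Mmrn1, defining genes of lymphatic vessels, and Cldn5, a tight junction gene of vessels, had 0 UMIs in both matrices. These genes also help to set the endothelial class. A cell that passed both that gate and the macrophage gate entered no class, so low counts here partly follow from the gates. This holds for every marker counted next except Pecam1 and Pdpn. Of 6 endothelial markers, 5 were detected in control and 3 in IL_27, with summed levels of 64.1 and 59.9 CPM. Of 5 lymphatic markers, 2 were detected in each, with summed levels of 90.4 and 120 CPM. They were Flt4 and Pdpn in control and Ccl21a and Pdpn in IL_27. Pdpn was also the only lymphatic marker detected in C1q-low Dcstamp cells, at 89.0 and 104 CPM. The median mitochondrial share of UMIs in macrophages was 1.09% in control and 0.859% in IL_27. Transcript length also went with the ratios: of 5 equal groups of genes, that with the shortest transcripts had a median log2 ratio of -0.13 in macrophages and that with the longest 0.10. Folr2 lies in the shortest group, and Mrc1, Stab1 and Siglec1 lie in the longest. The part of length in the receptor ratios was not tested.

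The macrophages were then divided by clustering on genes other than the 8 receptor genes. Clusters 7, 11 and 15 were macrophage clusters. Cluster 8, that of C1q-low Dcstamp cells, also held 18.5% of control and 16.6% of IL_27 cells of the macrophage class. Those cells carried 23.7% and 13.8% of the Mrc1 UMIs of that class and 27.7% and 16.3% of those of Msr1. Cluster 7 had a median of 900 UMIs and was led by C1q genes, Npl and Ccl12. Cluster 11 was led by Pf4, Cd163, Ppbp and Folr2, with Stab1 among its 10 leading genes. Cluster 15 was led by Cd209f, Cbr2, Cd209g, Ccl8 and C4b, with Lyve1, Apoe and Gas6 among its 10 leading genes. Cluster 15 was small, with 174 control and 179 IL_27 cells at medians of 1923 and 1815 UMIs, yet it carried the highest levels of 6 receptor genes in both matrices. The exceptions were Msr1, which was highest in cluster 11 at 597 and 620 CPM against 276 and 282 CPM in cluster 15, and Marco, which had at most 5 UMIs in any of these clusters per matrix.

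Within cluster 15 the receptor genes had unequal ratios. Lyve1 stood at 102 CPM in 27 of 174 control cells with a UMI and at 332 CPM in 53 of 179 IL_27 cells, a ratio of 3.24 (2.30 to 4.63). Cd163 stood at 200.4 and 527 CPM, with a ratio of 2.63 (2.05 to 3.40), and 30 of its 88 control UMIs and 79 of its 232 IL_27 UMIs lay in the 3 leading cells. Stab1 stood at 230 and 579 CPM, with a ratio of 2.52 (1.99 to 3.204), and was seen in 36.8% and 56.4% of cells. Mrc1 stood at 1519 and 2242 CPM, with a ratio of 1.48 (1.34 to 1.63). All 4 intervals lay above 1.

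Folr2 had no such ratio there. It stood at 679 and 588 CPM in cluster 15, a ratio of 0.867 (0.731 to 1.03), and Siglec1 and Msr1 had ratios of 1.11 (0.691 to 1.77) and 1.02 (0.789 to 1.32). In cluster 11 the ratios were 1.12 for Lyve1 (0.606 to 2.03), 1.17 for Cd163 (0.981 to 1.39), 1.37 for Stab1 (1.16 to 1.60) and 1.14 for Mrc1 (1.08 to 1.21), all nearer to 1 than in cluster 15. In cluster 7, Lyve1 had 2 and 12 UMIs, 10 of the latter in 3 cells. Stab1 in cluster 7 stood at 19.1 and 49.0 CPM, with a ratio of 2.57 (1.59 to 4.25), and Mrc1 at 168 and 291 CPM, with a ratio of 1.73 (1.46 to 2.06). Whether the ratios differ between clusters was not tested, with 1 matrix per group.

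Cluster 15 held 10.5% of control and 13.2% of IL_27 cells of the macrophage class. It carried 58.1% and 75.3% of the Lyve1 UMIs of that class, 21.4% and 45.8% of those of Cd163, and 19.9% and 39.6% of those of Stab1. Macrophage-class cells outside it had lower levels and ratios of 2.74 (1.70 to 4.47) for Lyve1, 1.57 (1.34 to 1.86) for Cd163 and 1.72 (1.48 to 1.99) for Stab1. For Folr2 the ratio outside was 1.33 (1.15 to 1.53) against 0.863 (0.725 to 1.03) inside. Leading genes of this cluster, Cd209f and Gas6 among them, also differed between the matrices, so its size is not compared.

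**Figure D4:**
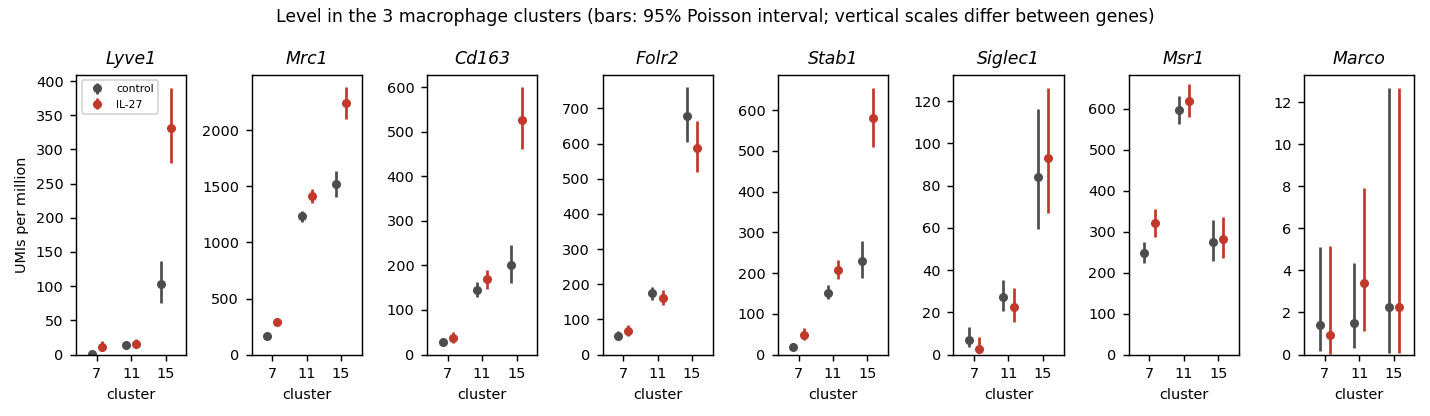
Level of each receptor gene (CPM) in macrophage clusters 7, 11 and 15, control in grey and IL_27 in red, with 95% Poisson intervals and a separate vertical scale for each gene. Lyve1, Cd163, Stab1 and Mrc1 are highest in cluster 15 of IL_27, Folr2 is high in cluster 15 of both matrices, and Msr1 is highest in cluster 11.

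Single cells were asked which receptor genes they carried together, at 1000 UMIs per cell. Lyve1 and Cd163 were seen together in 5 of 1276 control cells against 1.45 from the product of their shares, and in 21 of 967 IL_27 cells against 4.89. Among the 43 IL_27 cells with Lyve1, 48.8% (33.3 to 64.5) had Cd163, against 9.63% of the cells without Lyve1. Lyve1 and Folr2 were seen together in 10 control cells against 2.26 and in 17 IL_27 cells against 6.49. Stab1 and Folr2 were seen together in 34 control cells against 16.7 and in 53 IL_27 cells against 24.0.

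Pairs with Msr1 were mixed. Cd163 and Msr1 were found in 54 control cells against 31.7 and in 40 IL_27 cells against 35.8. Stab1 and Msr1 were found in 66 control cells against 41.0 and in 55 IL_27 cells against 51.8. Lyve1 and Msr1 occurred together in 5 control cells against 5.54 and in 14 IL_27 cells against 14.0, which is about the product. At 1000 UMIs no receptor gene was seen in 36.8% of control and 27.6% of IL_27 macrophages, and 5 or more were seen in 0.470% and 1.65%. Cells differ in type and state within the class, and these counts describe them without a test.

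Genes with the most similar pattern over 9 classes in both matrices (18 points) were taken by Pearson correlation of log2(CPM + 1). The points share 2 libraries and their depths, so the values are a description. Lyve1 was most like C6 (r = 0.91), Cd209f (0.91) and Gas6 (0.90), and Cd163 was most like C6 (0.95), Gas6 (0.93) and Ch25h (0.93). Folr2 was most like Gas6 (0.98), C6 (0.97) and Ms4a7 (0.97), the last of which is one of the genes that set the macrophage class. Stab1 was most like C1ra (0.93), Gpx3 (0.93) and Ms4a7 (0.92). Mrc1 was most like Rnase2a, Gask1b and Rab3il1 (0.96 each), Siglec1 most like Rab5c, Rcan1 and Gpx3 (0.93 each), and Msr1 most like C3ar1 (0.98), F13a1 (0.97) and Ccl9 (0.96). Between receptor genes r was lowest for Lyve1 and Msr1 (0.41) and highest for Cd163 and Folr2 (0.94).

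Other genes of the same biology were read from lists. Of 22 measured resident macrophage genes, 8 were at least 1.5 times higher in IL_27 macrophages and 0 were lower, with a median log2 ratio of 0.28. Cd209f, a C-type lectin of tissue macrophages, stood at 14.1 and 64.8 CPM, with a ratio of 4.59 (3.56 to 5.96) beside that of Lyve1. Maf stood at 125 and 282 CPM, with a ratio of 2.26 (2.05 to 2.49). At the other end of this list Id3 had a ratio of 0.892 and Retnla a ratio of 0.895. Of 14 lectins, 3 were higher and 0 lower (median 0.34), with Cd209f and Clec10a (2.22, 1.95 to 2.52) at the top and Clec4e (0.833) and Ly75 (0.870) at the bottom.

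Among the other scavenger receptors few were higher. Of 8 measured, 1 was higher and 0 lower, with a median of -0.12. Olr1, the receptor for oxidised lipoprotein, stood at 41.4 and 63.0 CPM (1.52), Colec12 had a ratio of 1.40, and Cd68 and Cd14 had ratios of 0.837 and 0.876. Of 13 genes for clearance of dying cells, 3 were higher and 0 lower (median 0.10). This list includes C1qa, C1qb and C1qc, which help to set the macrophage class. Gas6, the bridge between dying cells and their receptors, stood at 54.2 and 106 CPM (1.95, 1.68 to 2.27), and Lrp1 and Mfge8 had ratios of 0.841 and 0.809. Timd4, a phosphatidylserine receptor of resident macrophages, had 13 and 14 UMIs (1.87, 0.817 to 4.33).

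Partners of single receptors were mixed. Of 13 haem and iron genes, beside the haemoglobin receptor gene Cd163, 1 was higher and 0 lower (median -0.11). Hmox1, the gene of the haem-degrading enzyme, stood at 379 and 710 CPM, with a ratio of 1.88 (1.77 to 1.99), and Fth1, a ferritin gene, had a ratio of 0.777. Of 9 folate genes, which include Folr2, 1 was higher and 0 lower (median 0.10): Slc46a1, a folate transporter gene, with 10 and 15 UMIs (2.61, 1.10 to 6.50). Of 9 hyaluronan and matrix genes, Lyve1 was the one counted as higher and 0 were lower (median 0.16). Of 7 genes in the list of sialic acid-binding lectins, not all of which encode such a lectin, 3 were higher and 0 lower (median 0.12). At the top were Spn, which does not encode one, with 12 and 15 UMIs, and Cd22, with 35 and 33. Of 12 genes of alternative activation, 1 was higher and 2 lower (median -0.04), with Chil3 at 2.09 and the chemokine genes Ccl17 and Ccl22 at 0.450 and 0.570. Chil3 helps to set the monocyte class and Ccl22 the mature dendritic class, so their ratios in macrophages can depend on the gates.

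Interferon-stimulated genes lay on the opposite side. Of 15, 0 were higher and 11 at least 1.5 times lower in IL_27 macrophages, with a median log2 ratio of -0.94. Ifit3 stood at 12.3 and 1.45 CPM (0.118, 0.0371 to 0.287) and Cmpk2 at 10.8 and 3.18 CPM (0.294), while Ifi44 had a ratio of 0.772. Of 12 housekeeping genes 0 were higher and 0 lower, with a median of 0.06, and Gapdh was lowest at 0.746.

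**Figure D5:**
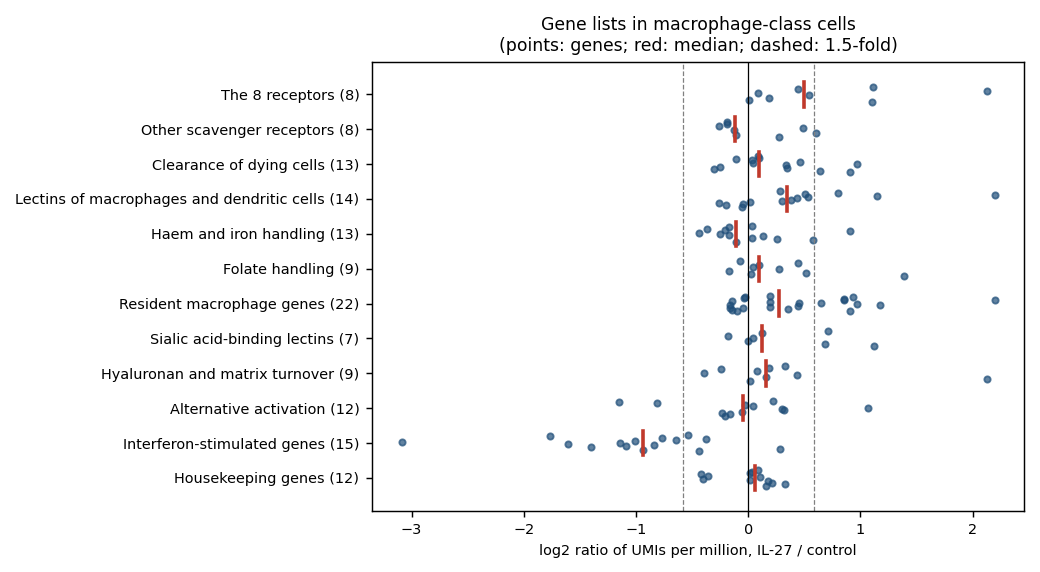
Log2 ratio, IL_27 over control, of the genes of each list in macrophages (points, genes with at least 20 UMIs, number in brackets), with list medians in red and dashed lines at 1.5-fold. Resident macrophage genes reach from 0.892 to 4.59 as ratios, and interferon-stimulated genes have a median log2 ratio of -0.94.

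In monocytes 4 of the 8 receptor genes had at least 20 UMIs. Mrc1 was higher and Siglec1 lower by at least 1.5 times, beside 7.52% of 8658 genes higher and 10.8% lower. Mrc1 had 314 UMIs in 120 of 472 control monocytes and 383 in 99 of 440 IL_27 monocytes, or 108 and 179 CPM, with a ratio of 1.66 (1.42 to 1.93). It was 1.496 when classes were taken from clusters. At 1000 UMIs it was seen in 8.64% (6.18 to 11.7) and 11.8% (8.74 to 15.4) of monocytes, and these intervals overlap. Macrophage markers summed to 1191 and 1300 CPM in the same cells, and their part in the Mrc1 ratio was not tested.

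Siglec1 had 44 UMIs in 34 control monocytes and 11 UMIs in 11 IL_27 monocytes. Its levels were 15.2 CPM (11.02 to 20.4) and 5.15 CPM (2.57 to 9.22), which do not overlap, and the ratio was 0.340 (0.158 to 0.668). Siglec1 is widely known as an interferon-inducible gene. Of the 15 interferon-stimulated genes 9 were lower and 0 higher in monocytes, with a median log2 ratio of -0.81. In macrophages 11 of the 15 were lower, with Siglec1 at a ratio of 1.00. That ratio was 0.714 (0.485 to 1.03) in macrophage-class cells outside cluster 15 and 1.11 (0.693 to 1.79) in those inside it. Whether Siglec1 goes with these genes was not tested. Msr1 was higher by less than 1.5 times, at 297 and 377 CPM, with a ratio of 1.27 (1.15 to 1.40). Stab1 had a ratio of 1.15 (0.779 to 1.71). Lyve1, Cd163, Folr2 and Marco had between 0 and 9 UMIs per matrix in monocytes, so no difference was detectable.

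C1q-low Dcstamp cells had 6 receptor genes with at least 20 UMIs, of which 3 were higher and 1 lower, beside 6.03% of 9929 genes higher and 8.06% lower. Cd163 stood at 2.35 and 6.35 CPM, with a ratio of 2.70 (1.33 to 5.92) from 11 and 33 UMIs. Folr2 stood at 4.49 and 7.12 CPM (1.59, 0.904 to 2.85) and Stab1 at 12.2 and 18.5 CPM (1.52, 1.08 to 2.14). The ratios passed 1.5 narrowly for both: Folr2 had 1.29 with stricter gates and Stab1 1.32 with classes from clusters. Without the 3 leading cells in each matrix the Cd163 ratio was 4.68. Neutrophils, as a guide to free RNA, had 0.609 and 1.40 CPM of Cd163 and 2.84 and 4.73 CPM of Stab1. No direction is read from these neutrophil values, with 6 and 8 UMIs of Cd163 and a Stab1 ratio of 1.67 (0.945 to 2.93). In T or NK cells Stab1 stood at 4.05 and 9.42 CPM, from 24 and 45 UMIs. Its ratio there was 2.33 (1.39 to 3.995), an interval above 1. The same cells had 3 and 2 UMIs of Cd163 and 5 and 5 of Folr2, too few to read a direction. The part of free RNA in the Cd163, Folr2 and Stab1 ratios of C1q-low Dcstamp cells was not tested.

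Siglec1 was the gene that was lower, at 6.42 and 3.08 CPM, with a ratio of 0.480 (0.244 to 0.909) from 30 and 16 UMIs. In these cells 13 of 15 interferon-stimulated genes were lower, and their relation to Siglec1 was again not tested. Mrc1 stood at 322 and 412 CPM, with a ratio of 1.28 (1.19 to 1.37). Msr1 stood at 292 CPM in both matrices, from 1367 and 1519 UMIs, a ratio of 1.00 (0.929 to 1.08).

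Over all dendritic cells the measured ratios lay below 1. Here 3 receptor genes had at least 20 UMIs, of which 0 were higher and 1, Msr1, was lower, beside 8.31% of 10618 genes higher and 7.46% lower. Msr1 stood at 15.01 and 9.16 CPM, with a ratio of 0.610 (0.423 to 0.874), and Mrc1 at 27.5 and 21.5 CPM, with a ratio of 0.783 (0.611 to 1.00). With classes from clusters the Msr1 ratio was 0.845, so that gene no longer passed, and with stricter gates it was 0.718 while Mrc1 had 0.394. In mature dendritic cells, which carry Fscn1 and Ccl22, Mrc1 had 42 UMIs in 19 of 216 control cells and 16 in 12 of 302 IL_27 cells, or 24.9 and 7.56 CPM, with a ratio of 0.304 (0.159 to 0.552). Msr1 had 46 and 24 UMIs there, or 27.3 and 11.3 CPM, with a ratio of 0.416 (0.243 to 0.696). Macrophage markers over all dendritic cells summed to 334 CPM in control and 206 CPM in IL_27, which moves the same way, and their part was not tested.

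Mrc1 ratios were spread widely over the dendritic types. Conventional type 2 cells, the dendritic type with the highest Mrc1 level, stood at 72.6 and 83.5 CPM, with a ratio of 1.15 (0.855 to 1.55), and 3 cells held 42.7% and 34.5% of these UMIs. Conventional type 1 cells had 5 and 19 UMIs, or 2.12 and 7.54 CPM, with a ratio of 3.56 (1.29 to 12.2), at a level below that of neutrophils. With classes from clusters that ratio was 2.18 (0.809 to 6.46), an interval that includes 1. Mrc1 ratios were also above 1 in T or NK cells, at 2.65 (1.58 to 4.55), and in tumour cells, at 2.10 (1.36 to 3.30). The part of free RNA in the type 1 ratio was not tested. No other receptor gene reached 20 UMIs in type 1 cells.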

How the data were processed

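The members and all gene lists were chosen with earlier results of these data known. The authors deposited raw UMI counts in a single matrix for each group, and per the file headers these come from Cell Ranger 4.0.0. The kit was a 10x Genomics 5′ kit, per the labels' protocols, and per the submitters' processing notes the build was mm10 and Seurat 3.2.0 was used in a role not stated there. The annotation release and counting options were not given there.

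Filters on cells were a minimum of 200 genes and of 500 UMIs and a mitochondrial share below 10%. Classes were gated on summed marker UMIs per 10000 with at least 2 UMIs. The gates were set after the data were seen. Cells that passed several lineages (5.55% and 5.03%) or none (11.8% and 13.5%) entered no class. Doublets were scored with Scrublet in scanpy 1.11.5 and kept, with an alternative that removes the highest 8%. Clusters came from Leiden (resolution 1, 2000 variable genes, 30 components, 15 neighbours) without the receptor genes.

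Counts were summed per class and matrix. All intervals are exact and at 95%: Poisson for levels, Clopper-Pearson for shares, conditional binomial for ratios. UMIs remove PCR copies, and intervals and floors (3 counts) cover counting error only. Genes with at least 20 UMIs count as measured, and at least 1.5-fold as higher or lower. The text names the 8 genes, the 3 genes most like each of 7 (Marco had too few UMIs), and the 2 highest and 2 lowest of each list, apart from some that are not reported here. Of the listed symbols, 3 were not in the table. Some listed genes, Ccl24 and Cd209a among them, also help to set classes, so their ratios can depend on the gates. The ratio step was tested on simulated counts.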

Additional observations from a re-analysis of the deposited data

Results flagged for a closer look

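Mrc1 and Msr1 are listed because their differences between the groups went in opposite directions in different cell classes, with intervals on either side of a ratio of 1. In mature dendritic cells Mrc1 had a ratio of 0.304 and Msr1 a ratio of 0.416. In macrophages the ratios were 1.46 and 1.14 and in monocytes 1.66 and 1.27. The difference between the classes was not tested, with 1 matrix per group.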

How the results depend on the processing

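No paired analysis was possible because each group is 1 matrix. In macrophages 0 receptor genes were lower and 3 higher under 10 of 11 alternatives, and 4 higher with stricter gates, where Mrc1 reached 1.55. The ratio ranged from 2.74 to 5.44 for Lyve1, 1.57 to 2.36 for Cd163, 1.72 to 2.30 for Stab1 and 1.02 to 1.38 for Folr2. The lower ends are the values for cells outside cluster 15, or, for Folr2, with classes from clusters. In monocytes the count of higher genes was 0 with classes from clusters, and that of lower genes was 0 with cells thinned to 1000 UMIs, where Siglec1 fell under 20 UMIs, and 2 with no minimum of UMIs. In dendritic cells the count of lower genes was 0 with classes from clusters. It was also 0 after thinning, where Msr1 fell under 20 UMIs, and with no minimum it was 4, beside 1 higher. In C1q-low Dcstamp cells the higher count, 3 as reported, was 1 with classes from clusters. It was 0 after thinning, where Cd163 and Folr2 fell under 20 UMIs. The lower count was 0 after thinning and with a minimum of 50 UMIs, since Siglec1 had too few UMIs for either. Among ratios reported as at least 1.5-fold higher or lower, 0 reversed under the alternatives. Ratios nearer to 1 were not counted as reversed, and that of Siglec1 in macrophages ranged from 0.714 to 1.17. Of 176 recomputed ratios 20 lay outside the interval of the value reported, as did 41 of 96 recomputed shares of macrophages. The cause was not tested. With classes from clusters, 7 of the 8 genes in control and 8 in IL_27 were highest in macrophages. Leaving out shared barcodes, the 3 leading cells of each gene, or the cells of cluster 15 was chosen after seeing the data. With 1 matrix per group, animal, tumour and library cannot be told apart from treatment.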
